A study of Mus musculus with 10 samples.

Results

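The comparison described here is between tumor T cell libraries from melanoma-bearing mice fed an inhibitor of the receptor CSF1R (CSF1Ri) and those from mice fed normal chow (control). It uses 5 of the 10 libraries of the series, 2 CSF1Ri and 3 control, and a gene entered it if at least 2 of these 5 libraries held 10 or more normalized counts. Of the 48825 genes in the table, 14163 met that rule and 34662 did not. A normalized count is a count of reads per gene divided by a scaling factor of its library and rounded to a whole number, and all tests were made on log2(normalized count + 1).

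All 5 libraries came from mice of one design with BrafCA and Tyr::CreER, in which a drug-inducible Cre recombinase under the tyrosinase promoter activates mutant Braf in melanocytes. Both groups therefore have the same tumor alleles, although the genotype field of the labels reads wild type, and they differ in the chow. The CSF1Ri group received chow with PLX6134 at 600 mg/kg, and the control group normal chow, starting 30 days after induction at tumor volumes below 100 mm3. Feeding lasted 30 days at most and ended earlier in tumors of 2 cm3. A vehicle, PBS, was given in some of the experiments, and the labels do not say whether it was given to these mice. Mice were matched for age, which is not stated. Each library was made from a pool of at least 3 tumors, so the p-values below measure the spread between pools of tumors, and single mice cannot be seen. The CSF1Ri libraries are called CSF1Ri 6, from the number in its title, and CSF1Ri 1, whose title has no number. The other 5 libraries came from mice given a CD40 antibody at 10 mg/kg, alone or with the same chow, and are used only where named.

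CSF1R is a receptor tyrosine kinase of monocytes and macrophages, which depend on its ligands CSF1 and IL-34 to survive and to multiply. In tumors, macrophages present antigen, remodel matrix and make cytokines and enzymes that restrain T cells, so blocking CSF1R is a way to change the surroundings of T cells without acting on them directly. T cells themselves are read through their antigen receptor and the co-receptors CD4 and CD8, through inhibitory receptors such as PD-1, and through the effector program they carry, such as interferon gamma, granzymes or interleukin 17.

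The libraries held 11941067 to 12736201 normalized counts, and about 13.6 M to 15.01 M (mega) reads in genes in the 4 libraries in which the spacing of values allowed an estimate; it did not in control 1. The titles name T cells while the tissue field names tumor macrophages, and the protocol gives no step that selects T cells. Cd3e, a chain of the T cell receptor complex, stood at 13804, 10586 and 22822 normalized counts in control 1, 2 and 3 and at 19445 and 22898 in CSF1Ri 1 and 6. Csf1r stood at 110, 120 and 106 in the controls and at 99 and 133 with CSF1Ri, with overlapping groups. T cell transcripts were thus abundant and Csf1r was low in all 5 libraries, also in those of the control mice. Reads of genes on the Y chromosome summed to 2438 in control 1 and to 0 in the other 4, so only that library showed transcripts of male mice. Across 8779 genes, ranks correlated at rho 0.940 between the CSF1Ri libraries, at 0.872 to 0.902 between controls and at 0.854 to 0.914 between groups.

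With CSF1Ri, transcripts of PD-1, of both chains of CD8 and of CD4 were higher than in every control library, and transcripts of interleukin 17A and of several genes of matrix, lipid transport and epithelium were lower than in every control library. Pdcd1 differed by 2.68-fold, Cd8a by 2.05-fold, Cd4 by 1.79-fold, Il17a by 3.32-fold and Apod by 5.09-fold. None of these differences passed the test over all genes: limma called 0 of 14163 genes (0%) at an adjusted p under 0.05, and the smallest adjusted p was 0.139. At an unadjusted p under 0.05 stood 999 genes, where 5% of the tested genes would make 708, of which 406 (2.87%) were higher and 593 (4.19%) lower with CSF1Ri. Both CSF1Ri libraries were above all 3 controls for 1703 genes (12.0%) and below all 3 for 1572 (11.1%), shares against which the counts of the gene lists below are to be read. The median log2 fold change over all genes was 0.03. An exact permutation test of a single gene cannot go below a one-sided p of 0.1 with 3 against 2 libraries, which allow 10 assignments. If the labels made no difference, a gene would stand above all 3 controls with that probability, 0.1, and likewise below. The shares of 12.0% and 11.1% lie close to it.

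Single libraries moved these counts. The number of genes at an unadjusted p under 0.05 was 760 higher and 1060 lower without control 2, 377 lower without control 1, 145 higher without CSF1Ri 1, and 67 higher and 267 lower without CSF1Ri 6. In the fits with a lone CSF1Ri library, that library is assumed to vary like the controls.

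**Figure D1:**
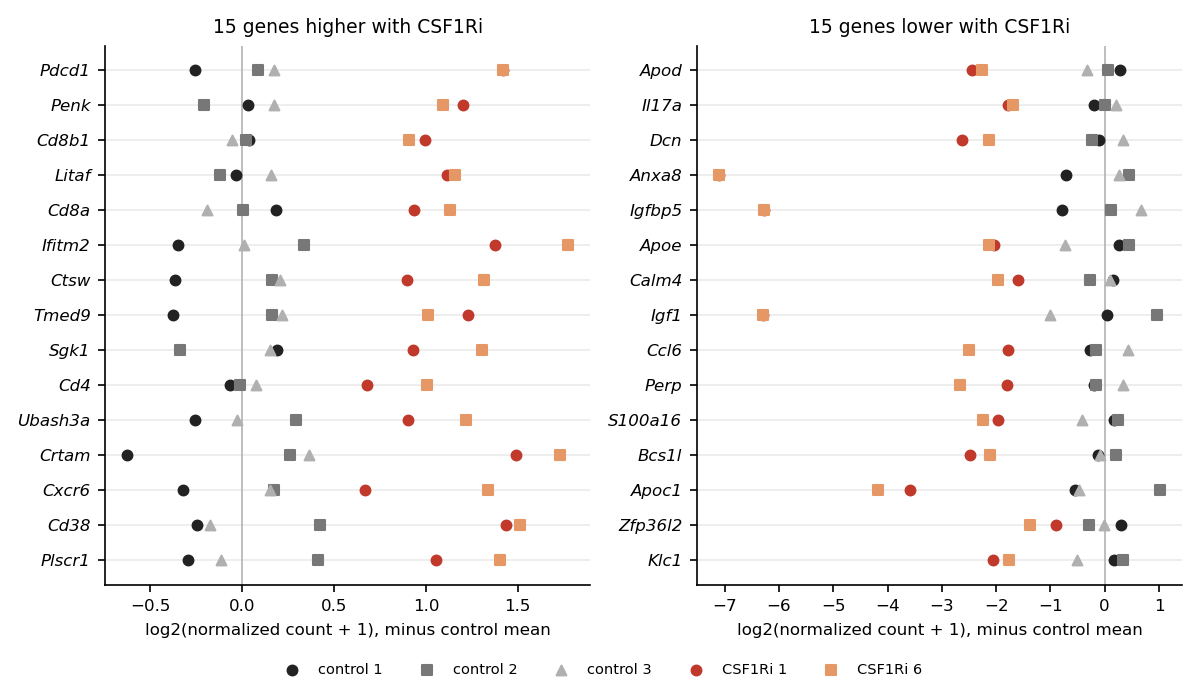
The 15 genes with the smallest p that were higher (left) and lower (right) with CSF1Ri, among genes with a mean of at least 50 whose groups did not overlap. Each point is a library, placed by its log2(normalized count + 1) minus the mean of the 3 controls; Anxa8, Igfbp5 and Igf1 were at 0 in both CSF1Ri libraries, and none of the 30 genes passed the adjusted threshold.

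Pdcd1 encodes PD-1, the receptor on activated T cells that dampens signalling when it binds PD-L1 or PD-L2. It stood at 1622, 2057 and 2188 normalized counts in the controls and at 5196 and 5187 with CSF1Ri. The CSF1Ri libraries were nearly equal and lay far above the controls, with a log2 fold change of 1.42 (SE 0.197, adjusted p = 0.223). Per 100 counts of Cd3e, the value was 11.8, 19.4 and 9.59 in the controls and 26.7 and 22.7 with CSF1Ri, so the groups also stood apart on this scale.

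Il17a encodes interleukin 17A, the cytokine of type 17 helper and of many gamma delta T cells that draws neutrophils and acts on epithelium. It stood at 3182, 3672 and 4222 normalized counts in the controls and at 1070 and 1138 with CSF1Ri. Both CSF1Ri libraries held less than the lowest control, with a log2 fold change of -1.73 (SE 0.199, adjusted p = 0.139). Per 100 counts of Cd3e, the value was 23.1, 34.7 and 18.5 in the controls and 5.50 and 4.97 with CSF1Ri. Il17a and Apod shared the smallest adjusted p of the comparison.

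The 250 bases before the start of these genes, the T cell genes with the smallest p in each direction, are shown from RefSeq on GRCm38.p6, 5′ to 3′ on the strand of the gene. Il17a lies at chr1:20730905-20734496 on the plus strand and its window at chr1:20730655-20730904. Pdcd1 lies at chr1:94038305-94052553 on the minus strand and its window at chr1:94052554-94052803. Capitals mark matches, on either strand, to AGGTCA, a half-site of nuclear receptors, or to TGTGGT, the core bound by RUNX factors.
Il17a: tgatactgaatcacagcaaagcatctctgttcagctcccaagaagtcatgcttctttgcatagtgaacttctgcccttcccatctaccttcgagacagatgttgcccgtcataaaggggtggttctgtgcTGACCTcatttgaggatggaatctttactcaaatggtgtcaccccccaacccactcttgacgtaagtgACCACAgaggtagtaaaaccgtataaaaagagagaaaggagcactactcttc
Pdcd1: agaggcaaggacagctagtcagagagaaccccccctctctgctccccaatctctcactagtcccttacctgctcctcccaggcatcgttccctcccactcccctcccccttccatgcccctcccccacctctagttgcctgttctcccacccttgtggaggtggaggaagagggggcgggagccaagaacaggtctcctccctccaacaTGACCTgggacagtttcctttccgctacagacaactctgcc
In the Il17a window, AGGTCA was found on the opposite strand at -120 to -115 from the start and TGTGGT on the opposite strand at -52 to -47. The Pdcd1 window held AGGTCA on the opposite strand at -41 to -36 and no TGTGGT, and neither window held TGAGTCA, a site of AP-1. The windows of Il22 and Cd8a, not shown, were searched as well and held none of these motifs. Of 32851 promoter windows of this length, 14.02% held AGGTCA, 14.05% TGTGGT and 4.46% TGAGTCA on either strand, so such matches are common. Binding was not measured here.

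Genes of the T cell receptor complex and its co-receptors were higher as a group. Of 20 listed genes, all tested, 19 had a higher mean log2 level with CSF1Ri, 10 stood above all controls in both libraries and 0 below, and 5 were higher at an unadjusted p under 0.05; the median log2 fold change was 0.35 against 0.03 over all genes. The co-receptors led the list. Cd8b1, the beta chain of CD8, stood at 2780, 2754 and 2613 in the controls and at 5421 and 5102 with CSF1Ri (log2 fold change 0.95, SE 0.165, adjusted p = 0.587). Cd8a, its neighbour on chromosome 6 (chr6:71373427-71379173, Cd8b1 at chr6:71322788-71337494), stood at 1911, 1691 and 1475 and at 3223 and 3685 (1.03, SE 0.199, adjusted p = 0.684). For both chains each CSF1Ri library held well over every control.

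Cd4, the co-receptor of helper and regulatory T cells, stood at 2146, 2226 and 2364 in the controls and at 3591 and 4504 with CSF1Ri, a log2 fold change of 0.84 (SE 0.186, adjusted p = 0.690). The ratio of Cd8a to Cd4 was 0.890, 0.760 and 0.624 in the controls and 0.898 and 0.818 with CSF1Ri, which overlap. Per 100 counts of Cd3e, Cd4 was 15.5, 21.03 and 10.4 in the controls and 18.5 and 19.7 with CSF1Ri, so on that scale the groups overlapped and control 2 was highest. Cd6, an adhesion receptor that tunes receptor signalling, stood at 3333, 2882 and 3275 and at 4508 and 5588, and Cd247, the zeta chain, at 5169, 5265 and 4859 and at 6404 and 7629. Groups overlapped for Cd3e, Cd3d and Cd3g, the core CD3 chains, with log2 fold changes of 0.50, 0.36 and 0.37. Per 100 counts of Cd3e, Cd8a was 13.8, 15.97 and 6.46 in the controls and 16.6 and 16.1 with CSF1Ri, so relative to Cd3e it exceeded control 2 by little. Both ratios depend on the chain chosen. Control 2 held the least Cd3e of the controls (10586) but the most Cd3g, which stood at 16458, 24418 and 18802. Cd4 and Cd8a were not set against another CD3 chain. In bulk RNA more cells of a type and more RNA per cell cannot be told apart.

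Costimulatory and activation genes were mostly higher: 18 of 20 by mean log2 level, 12 above all controls, 1 below all, 7 at an unadjusted p under 0.05 and higher, and a median of 0.48. Cd38, an ectoenzyme that consumes NAD and marks activated and dysfunctional CD8 T cells, stood at 157, 251 and 165 in the controls and at 507 and 535 with CSF1Ri (log2 fold change 1.48, SE 0.354, adjusted p = 0.690). Ly6a, the activation antigen Sca-1, stood at 4871, 8415 and 5135 and at 10395 and 11518. Tnfrsf9, which encodes the costimulator 4-1BB induced by antigen, stood at 3320, 4440 and 5062 and at 6684 and 7330. Both CSF1Ri libraries thus exceeded every control for these genes, by 1.48, 0.88 and 0.73 on the log2 scale. The exception below all controls was Cd69, an early activation marker that also retains T cells in tissue, at 6072, 7314 and 7520 against 5955 and 5528.

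Inhibitory receptors and exhaustion genes followed Pdcd1 in part. Of 20 genes, 16 were higher by mean log2 level, 9 stood above all controls and 1 below, 7 were higher at an unadjusted p under 0.05, and the median was 0.45. Entpd1, the ectoenzyme CD39 that breaks down ATP, stood at 355, 333 and 244 in the controls and at 572 and 541 with CSF1Ri. Lag3, a receptor for MHC class II, stood at 109, 166 and 96 and at 234 and 277, and Cd160, a receptor of cytotoxic T cells that binds HVEM, at 402, 1003 and 865 and at 1460 and 1993. Havcr2, which encodes TIM-3, stood at 208, 490 and 533 and at 641 and 952. For each of these 4 both CSF1Ri libraries were above the highest control. Ctla4, the inhibitory receptor that competes with CD28, was the gene below all controls, at 8121, 8928 and 7599 against 7512 and 6171. The transcription factors of exhaustion Tox and Nfatc1 overlapped between groups, with log2 fold changes of 0.22 and 0.02.

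Among 21 listed genes of cytotoxic cells, 18 were tested and all 18 were higher by mean log2 level, 8 above all controls and 5 at an unadjusted p under 0.05, with a median of 0.61. The remaining 3, the granzymes Gzmd, Gzme and Gzmf, were below the filter. Ctsw, the cathepsin of killer cells, stood at 2456, 3537 and 3652 in the controls and at 5907 and 7890 with CSF1Ri (log2 fold change 1.11, SE 0.233, adjusted p = 0.690). Prf1, perforin, stood at 142, 287 and 190 and at 366 and 778, and Fasl, the death ligand, at 307, 497 and 489 and at 771 and 834. Nkg7, a protein of cytotoxic granules, stood at 9665, 14150 and 7193 and at 16690 and 19413. CSF1Ri 6 held the highest value of all 5 libraries for each of these genes. The list median over the control mean was 0.36 in CSF1Ri 1 and 0.96 in CSF1Ri 6. It was -0.37, 0.42 and -0.07 in control 1, 2 and 3, so control 2 lay above CSF1Ri 1. Gzmb, granzyme B, overlapped between groups, at 1820, 3342 and 2513 against 3061 and 4732.

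Genes of the type 1 program, through which T cells make interferon gamma, were also higher: 12 of 14 tested, 7 above all controls, 6 at an unadjusted p under 0.05, with a median of 0.48. Cxcr6, a chemokine receptor of tissue-resident T cells, stood at 10803, 15207 and 15010 in the controls and at 21491 and 34123 with CSF1Ri (log2 fold change 1.00, SE 0.239, adjusted p = 0.690). Cxcr3, the receptor for chemokines induced by interferon gamma, stood at 1142, 2105 and 1385 and at 2545 and 3890. Stat4, which carries the interleukin 12 signal, stood at 470, 398 and 452 and at 721 and 1098. Both CSF1Ri libraries exceeded the controls for all 3, with CSF1Ri 6 higher than CSF1Ri 1. Ifng itself stood at 876, 1063 and 563 against 1272 and 1157, a log2 fold change of 0.59 (SE 0.301, adjusted p = 0.735). Tbx21, which encodes the master factor T-bet, was spread over 5 to 211 counts in the controls and stood at 58 and 80 with CSF1Ri, so no direction could be read. The lists share members: Stat4, Il12rb2 and Il18rap also stand in the list of cytokine receptors, and Ccl5 in that of cytotoxic genes.

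Of 27 tested genes that respond to interferon gamma, 18 were higher by mean log2 level, 6 above all controls and 1 below, with 2 higher at an unadjusted p under 0.05 and a median of 0.30. The sums over the list overlapped, at 107844, 149657 and 112021 in the controls and 137114 and 144746 with CSF1Ri, with control 2 highest. Irgm1, an immunity-related GTPase, stood at 918, 1814 and 1523 in the controls and at 2374 and 2646 with CSF1Ri. Irf1, a transcription factor of the response, stood at 2207, 2476 and 1934 and at 2740 and 2790. Nlrc5 was the member below all controls, at 1464, 1177 and 1226 against 997 and 923. The 22 tested genes of the type I interferon response split into 11 higher and 11 lower, with a median of -0.02. In that list 2 genes stood above all controls and 1 below. Mx1, an antiviral GTPase, was the one below, at 60, 101 and 26 in the controls against 4 and 1. Those above were Ifit1, an interferon-induced RNA-binding protein, at 137, 96 and 145 against 270 and 146, and Mx2, a relative of Mx1, at 0, 0 and 4 against 11 and 40.

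**Figure D2:**
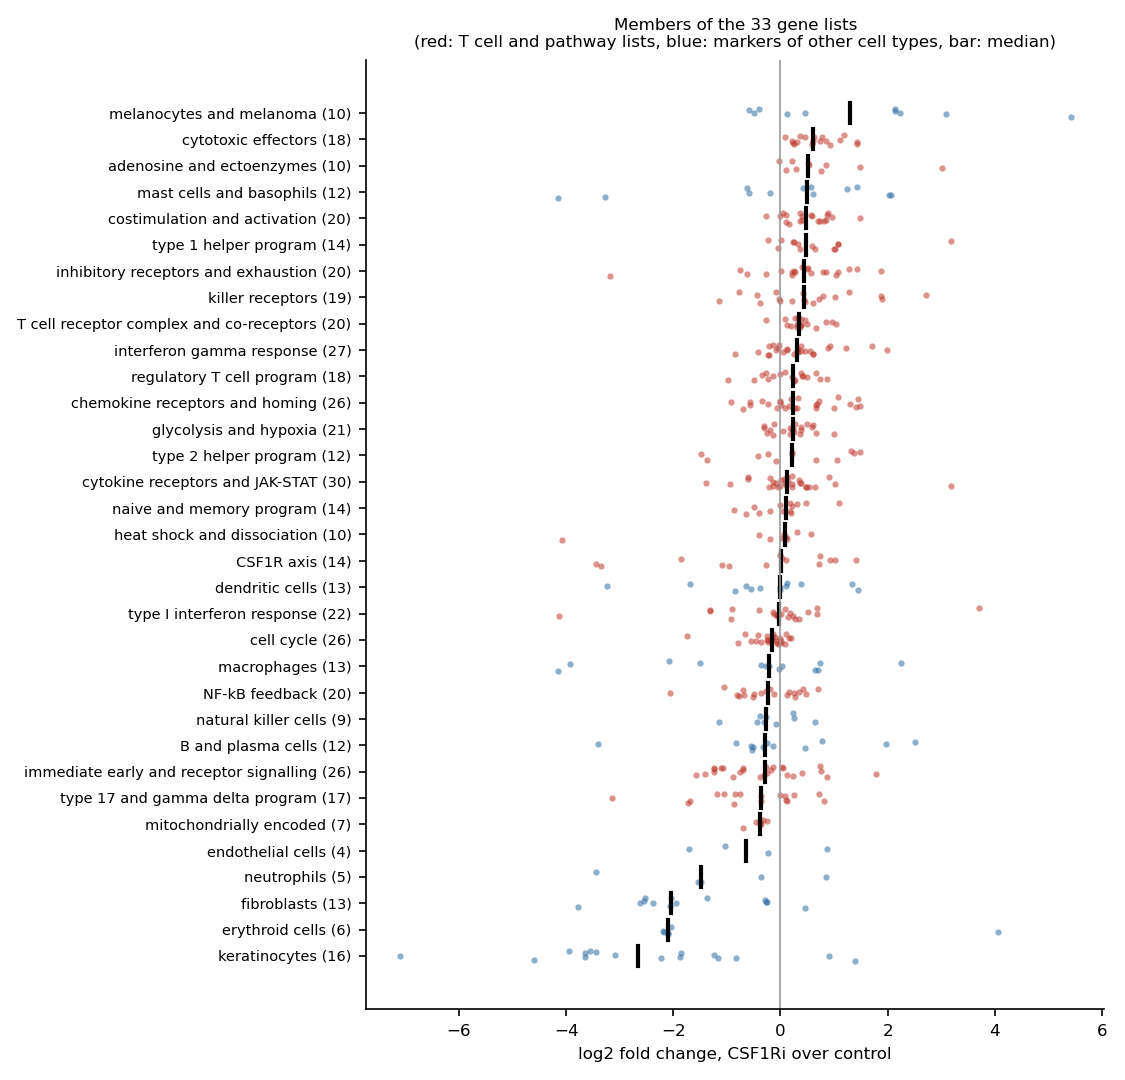
Log2 fold changes, CSF1Ri over control, of the tested members of 33 gene lists, each point a gene, the black bar the list median and the number in brackets the members tested. The lists of cytotoxic, costimulatory, type 1 and inhibitory genes have medians of 0.45 to 0.61, and those of keratinocytes, erythroid cells and fibroblasts of -2.66 to -2.05; lists with low counts, such as melanocytes, spread widely.

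The type 17 program split. Of 17 tested genes, 6 were below all controls, each at an unadjusted p under 0.05, 1 was above all, and the median log2 fold change of -0.36 came from -0.81 in CSF1Ri 1 and 0.12 in CSF1Ri 6. The low genes included the cytokines Il17a, Il17f and Il22. Il17f, the relative of Il17a on the same chromosome, stood at 3196, 7086 and 6212 in the controls and at 2044 and 3067 with CSF1Ri (log2 fold change -1.05, SE 0.346). Il22, a cytokine for epithelial repair, stood at 191, 294 and 231 and at 11 and 58 (-3.15, SE 0.716). Both CSF1Ri libraries lay below every control for each cytokine.

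Il1r1, the receptor for interleukin 1 on type 17 cells, stood at 1160, 630 and 1209 in the controls and at 426 and 422 with CSF1Ri. Cd163l1, a scavenger receptor of gamma delta T cells that make interleukin 17, stood at 1115, 692 and 731 and at 159 and 408, and Maf, a transcription factor of these cells, at 12578, 5142 and 9694 and at 4866 and 4518. By mean log2 level, 11 of the 17 genes were lower and 6 higher, and not every lower gene stood apart from the controls. Rora, a nuclear receptor, stood at 1570, 1030 and 2279 against 1555 and 1716. Il23r, the receptor for interleukin 23, stood above all controls at 220 and 212 against 131, 95 and 146. Trdc, which encodes the invariant part of the delta receptor chain, overlapped at 6354, 5633 and 7929 against 3686 and 7133, with only CSF1Ri 1 below all controls. The ratio of Il17a to Trdc was 0.501, 0.652 and 0.532 in the controls and 0.290 and 0.160 with CSF1Ri, so Il17a was lower also relative to Trdc.

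**Figure D3:**
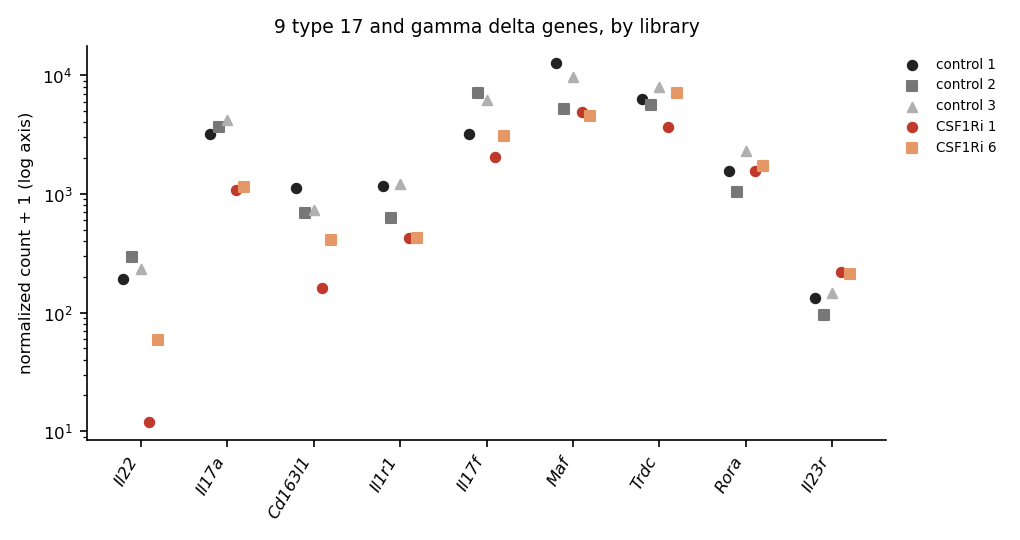
Normalized counts plus 1 of the 9 genes of the list named in the text, in each of the 5 libraries, on a log axis, ordered by log2 fold change. The CSF1Ri libraries lie below all controls for the 6 genes on the left, from Il22 to Maf, and overlap the controls for Rora and Trdc.

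Signalling genes that answer within minutes of receptor engagement were lower more often than higher. Of 26 tested immediate early genes, 17 were lower by mean log2 level, 7 below all controls, all 7 at an unadjusted p under 0.05, 3 were above all controls, and the median was -0.30. Nr4a1, the orphan nuclear receptor Nur77 induced by antigen receptor signals, stood at 1471, 722 and 841 in the controls and at 445 and 291 with CSF1Ri. Junb, a subunit of AP-1, stood at 5280, 3646 and 2066 and at 1486 and 1414, and Ier5 at 980, 888 and 579 and at 438 and 322. Those 3 genes were lowest in the CSF1Ri libraries. The list median over the control mean was 0.49, -0.32 and 0.0004 in control 1, 2 and 3. It was -0.19 in CSF1Ri 1 and -0.49 in CSF1Ri 6, so control 2 lay below CSF1Ri 1. Fos and Jun, the other main AP-1 subunits, overlapped between groups with log2 fold changes of -0.14 and 0.12. Egr1, a factor induced by the same signals, stood above all controls at 329 and 306 against 264, 112 and 221, and Btg2, which restrains proliferation, at 3352 and 2748 against 1365, 2062 and 2183.

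The NF-kB feedback list gave 4 of 20 genes above and 4 below all controls, with a median of -0.23. Tnfaip3, which encodes the brake A20, stood at 6755, 4391 and 5004 in the controls and at 3223 and 2029 with CSF1Ri, and Bcl3, an atypical inhibitor protein, at 221, 146 and 249 and at 60 and 37. Traf1, an adaptor of 4-1BB and related receptors, went the other way at 939, 978 and 1338 against 1901 and 1592. Zfp36l2, an RNA-binding protein that destabilizes transcripts, belonged to the 15 lower genes with the smallest p at 3010, 1986 and 2409 against 1298 and 939.

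Regulatory T cell genes gave no common direction, with 11 of 18 higher, 3 above and 2 below all controls and a median of 0.24. Foxp3, their defining factor, stood at 2639, 1620 and 2543 in the controls and at 1841 and 1637 with CSF1Ri, within the controls' range. Ccr8, a chemokine receptor of tumor regulatory T cells, stood above all controls at 3289 and 3142 against 1882, 2059 and 2184. The list median was 0.29 in CSF1Ri 1 and -0.04 in CSF1Ri 6. Il2, the growth factor on which these cells depend, stood at 217, 396 and 185 against 348 and 190, and Il2ra at 6230, 4184 and 8900 against 6655 and 4633. Il2rb, the beta chain shared by the receptors for interleukins 2 and 15, did stand above all controls, at 6565 and 6483 against 2906, 3097 and 4620. Stat5b, which carries the signal of these receptors, stood below them, at 507 and 260 against 988, 916 and 940.

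The type 2 list held 7 of 12 genes higher with a median of 0.22, which was 0.65 in CSF1Ri 1 and -0.25 in CSF1Ri 6. Il5, the cytokine of eosinophil growth, stood at 118, 319 and 158 in the controls, at 1402 in CSF1Ri 1 and at 184 in CSF1Ri 6, so its high value belonged to 1 library. Gata3, the master factor, overlapped at 3093, 1689 and 3248 against 2269 and 1610. Of 14 naive and memory genes, 1 stood above and 2 below all controls. Il7r, the survival receptor of memory T cells, was the one above, at 8570 and 6433 against 4978, 5216 and 5875, and Klf2, which drives exit from tissue, stood below at 586 and 554 against 1278, 822 and 675. Tcf7, which encodes the memory factor TCF-1, overlapped at 5153, 2088 and 3847 against 3031 and 3011.

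Receptors for migration gave 7 of 26 genes above and 2 below all controls, with a median of 0.24. Besides Cxcr6, Ccr8 and Cxcr3, Itgb2, a chain of the integrin LFA-1, stood above at 6397 and 6822 against 3326, 5138 and 4241. Cxcr4, the receptor for CXCL12, stood below all controls at 1244 and 1028 against 1949, 2022 and 1560, and Itgb7, an integrin chain of gut and epithelial T cells, at 3038 and 3524 against 5487, 4212 and 4867. Among killer cell receptors, Klrg1, a marker of terminal effector cells, stood below all controls at 1900 and 1661 against 2499, 3558 and 3130. Klrg1 was 1 of 2 genes of that list below all controls, and 3 of its 19 tested genes stood above them.

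Glycolytic genes stood slightly higher, with 7 of 21 above all controls, 0 below and a median of 0.23. Gpi1, an early enzyme of the pathway, stood at 3986, 4129 and 4215 in the controls and at 5601 and 6890 with CSF1Ri, and Pkm, pyruvate kinase, at 22835, 25031 and 25122 and at 32332 and 30771. Both enzymes exceeded all controls with little spread within groups. All 7 tested genes of the mitochondrial genome had lower means, 2 of them below all controls. Among those, mt-Nd4, a subunit of complex I, stood at 13337, 21713 and 21596 against 10721 and 12011. The mitochondrial list summed to 188657, 290870 and 289418 in the controls and to 184976 and 203528 with CSF1Ri, so control 1 lay between the CSF1Ri libraries.

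Cell cycle genes did not separate at this number of libraries: 20 of 26 were lower by mean log2 level, 5 below all controls, 0 at an unadjusted p under 0.05 in either direction, with a median of -0.15. Mki67, a marker of cycling cells, stood at 2094, 1262 and 2145 against 1731 and 1118. Cenpe, a kinetochore motor, was the member with the smallest p and stood at 548, 396 and 720 against 245 and 390. The ectoenzyme and adenosine list, in contrast, had 4 of 10 tested genes above all controls and 0 below, and besides Cd38 and Entpd1 it held Nt5e, the ectoenzyme CD73, at 626, 771 and 674 against 899 and 1074, and Ada, adenosine deaminase, at 275, 356 and 192 against 426 and 474.

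The target's own pathway showed no common direction, with 7 of 14 tested genes higher, 7 lower and a median of 0.01. Csf1, the ligand, stood at 160, 10 and 37 in the controls and at 48 and 136 with CSF1Ri, and Il34, the second ligand, was below the filter. Csf1r differed by 0.04 on the log2 scale (SE 0.460). Ccl7, a chemokine for monocytes, stood below all controls at 20 and 0 against 50, 68 and 28, whereas Cx3cr1, a receptor of monocytes and of some effector T cells, stood above them at 234 and 264 against 140, 57 and 101. Tyrobp, a signalling adaptor of myeloid and natural killer cells, overlapped at 603, 430 and 634 against 425 and 484.

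Markers of cells other than T cells were lower with CSF1Ri for some cell types, for macrophages only in part. Of the genes that mark macrophages, 13 of 15 were tested, of which 5 were higher and 8 lower by mean log2 level; 4 lay below all controls, all 4 at an unadjusted p under 0.05, and 0 above. Apoe, a lipid carrier made by macrophages, stood at 1279, 1448 and 642 in the controls and at 257 and 242 with CSF1Ri (log2 fold change -2.08, SE 0.374, adjusted p = 0.587). Lyz2, lysozyme, stood at 221, 680 and 637 and at 144 and 182, and the complement genes C1qc at 47, 36 and 34 and at 0 and 4 and C1qa at 8, 22 and 48 and at 1 and 0. The other members, Csf1r, C1qb, Adgre1 and Cd68 among them, overlapped, and the list median of -0.22 became 0.17 without CSF1Ri 1. Summed over the list, the counts ran from 1927 to 2846 in the controls and were 880 and 1253 with CSF1Ri, and Apoe held more than any other member in each control. Without Apoe the sums were 1001, 1398 and 1285 in the controls and 623 and 1011 with CSF1Ri, so CSF1Ri 6 then lay above control 1; this sum was chosen after seeing the data.

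Several further genes of lipid transport and of myeloid cells stood low. Apoc1, an apolipoprotein gene beside Apoe on chromosome 7, stood at 73, 218 and 77 in the controls and at 8 and 5 with CSF1Ri. Ccl6, a chemokine of myeloid cells, stood at 349, 373 and 567 and at 121 and 73. Igf1, a growth factor made by macrophages and stromal cells, stood at 79, 152 and 38 and at 0 in both CSF1Ri libraries, which with a floor of 3 counts per library is at least 29.9-fold below the control mean. Bounds from this floor, here and below, leave out the spread between libraries, and Igf1 was also at 0 in CD40 2 and CD40 3. For each of the 3 both CSF1Ri libraries lay under the lowest control.

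Fibroblast markers were lower for 12 of 13 tested genes by mean log2 level, 6 below all controls, each at an unadjusted p under 0.05, with a median of -2.05 that was -0.93 without CSF1Ri 1. Dcn, decorin (chr10:97479609-97518143), stood at 883, 815 and 1201 in the controls and at 153 and 217 with CSF1Ri, a log2 fold change of -2.38 (SE 0.310, adjusted p = 0.223). Col1a1, a chain of type I collagen, stood at 435, 137 and 522 and at 48 and 53, and Lum, lumican, at 208, 213 and 384 and at 77 and 25. Apod, an apolipoprotein of fibroblasts and skin (chr16:31296192-31314808), stood at 2681, 2302 and 1762 and at 408 and 463. Its log2 fold change of -2.35 (SE 0.248, adjusted p = 0.139) had the smallest p of the comparison, and the groups stood far apart. Igfbp5, a matrix binder of insulin-like growth factors, stood at 44, 83 and 123 and at 0 in both CSF1Ri libraries, at least 27.8-fold below the control mean with the same floor.

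Keratinocyte markers showed the lowest median of the 33 lists, -2.66, or -2.65 with genes at 0 in a group set at their bound, and -1.61 without CSF1Ri 1. Of 16 tested genes, 14 were lower by mean log2 level, 10 below all controls, and 11 at an unadjusted p under 0.05 and lower. Anxa8, an annexin of stratified epithelium (chr14:34085981-34100571), stood at 83, 187 and 164 in the controls and at 0 in both CSF1Ri libraries, at least 48.2-fold below the control mean with that floor (adjusted p = 0.223). Perp, a desmosome gene, stood at 323, 331 and 469 and at 105 and 57, Sfn, stratifin, at 503, 193 and 328 and at 74 and 101, and Krt14, a basal keratin, at 284, 271 and 775 and at 108 and 104. The sums over the list were 1940 to 3754 in the controls and 572 and 1002 with CSF1Ri. Calm4, a calmodulin-like gene of epidermis, stood at 603, 450 and 579 against 177 and 137, and S100a16 at 360, 377 and 240 against 81 and 67.

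Erythroid transcripts were unequal among the controls themselves. Hbb-bs, a beta globin, stood at 6912, 8176 and 1460 in the controls and at 692 and 1349 with CSF1Ri, so control 3 lay near CSF1Ri 6. Of 6 tested genes of the list, 4 lay below all controls and 1 above. The list, made up mostly of globin counts, summed to 2943 to 15915 in the controls and to 1352 and 2786 with CSF1Ri, although red cells were lysed during preparation, per the labels' protocols. Transcripts of melanocytes were few: Tyr, tyrosinase, stood at 0 in all controls and at 30 and 58 with CSF1Ri, a mean at least 14.7-fold above the floor, whereas Pmel, a melanosome gene, stood at 279, 323 and 246 against 224 and 178. The melanocyte median of 1.29 was -0.44 among the 4 members with at least 50 counts in at least 2 libraries.

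The sums of the fibroblast, keratinocyte, macrophage and erythroid lists were thus low in the libraries in which T cell receptor genes summed higher, with the macrophage sum no longer apart without Apoe. The T cell receptor sums were 188730 and 206572 against 138703 to 170961 in the controls. The part of these other transcripts in the differences of T cell genes was not tested. Of the fibroblast list, Thy1 is also a T cell gene and made up most of the CSF1Ri sums of 2997 and 3230.

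**Figure D4:**
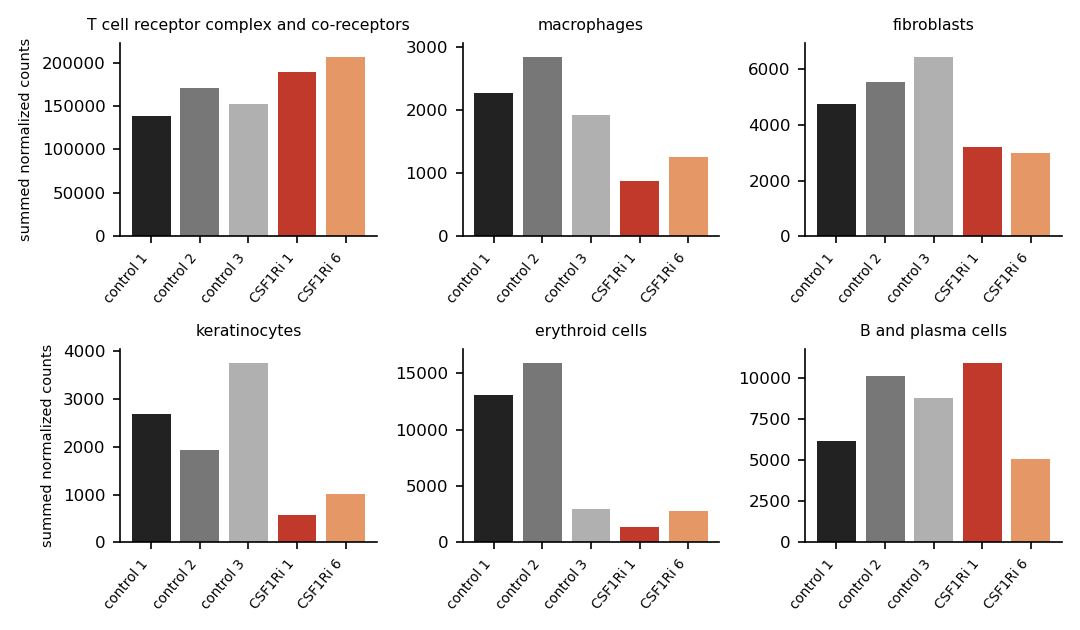
Normalized counts summed over 6 gene lists in each library; bars are single libraries, with axes from 0. The T cell receptor list was higher in both CSF1Ri libraries than in every control, the macrophage, fibroblast, keratinocyte and erythroid lists lower, and the B and plasma cell list was high in CSF1Ri 1 (10916) and low in CSF1Ri 6 (5069).

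The remaining genes of the 15 higher and 15 lower ones belong to no list described above. Penk, the precursor of the enkephalin peptides, stood at 5304, 4490 and 5851 in the controls and at 11917 and 11069 with CSF1Ri (log2 fold change 1.15, SE 0.174, adjusted p = 0.348), the second smallest p among higher genes. Crtam, an adhesion receptor of activated cytotoxic T cells, stood at 161, 298 and 321 and at 700 and 827, and Ifitm2, an antiviral membrane protein, at 274, 441 and 351 and at 908 and 1196. Both genes differed by about as much as Pdcd1, with log2 fold changes of 1.61 and 1.58. Ubash3a, a negative regulator of T cell receptor signalling, stood at 958, 1403 and 1123 and at 2143 and 2669. Sgk1, a kinase, stood at 1455, 1010 and 1417 and at 2430 and 3152, Plscr1, a scramblase induced by interferon, at 409, 669 and 463 and at 1043 and 1328, Litaf at 1166, 1101 and 1330 and at 2588 and 2667, and Tmed9, a protein of vesicle transport, at 1017, 1478 and 1537 and at 3104 and 2668. Among lower genes, Bcs1l, an assembly factor of mitochondrial complex III, stood at 190, 240 and 194 against 36 and 47, and Klc1, a kinesin light chain, at 362, 406 and 224 against 76 and 94. Within each of these genes the groups did not overlap, which the choice of the genes required.

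By rank correlation and by level the CSF1Ri libraries were closer to each other than any pair of controls. Over 6804 genes with a mean of at least 200 in the 5 libraries, the median absolute log2 difference was 0.24 between them and 0.34 to 0.41 between pairs of controls. Between groups it was 0.31 to 0.46. CSF1Ri 1 differed from control 2 (0.32) and from control 3 (0.31) by less than any pair of controls did. Where the CSF1Ri libraries differed most, immunoglobulin genes led. Ighg1, the constant region of an IgG heavy chain, stood at 1784 in CSF1Ri 1 and 0 in CSF1Ri 6, and Igkv6-15, a light chain variable gene, at 1906 and 0. Igkc, the kappa constant region, stood at 3728 and 458, and Jchain, which joins secreted antibody, at 683 and 63. The controls varied as well, with Igkc at 654, 2394 and 1921 and Jchain at 24, 611 and 120. Both transcripts were thus high in CSF1Ri 1 and control 2 and low in CSF1Ri 6 and control 1. In the other direction, Krt17, a keratin of injured epidermis, stood at 3 in CSF1Ri 1 and 292 in CSF1Ri 6, against 410, 250 and 768 in the controls, and Cst6, a cystatin of epithelium, at 4 and 303, against 264, 499 and 252.

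**Figure D5:**
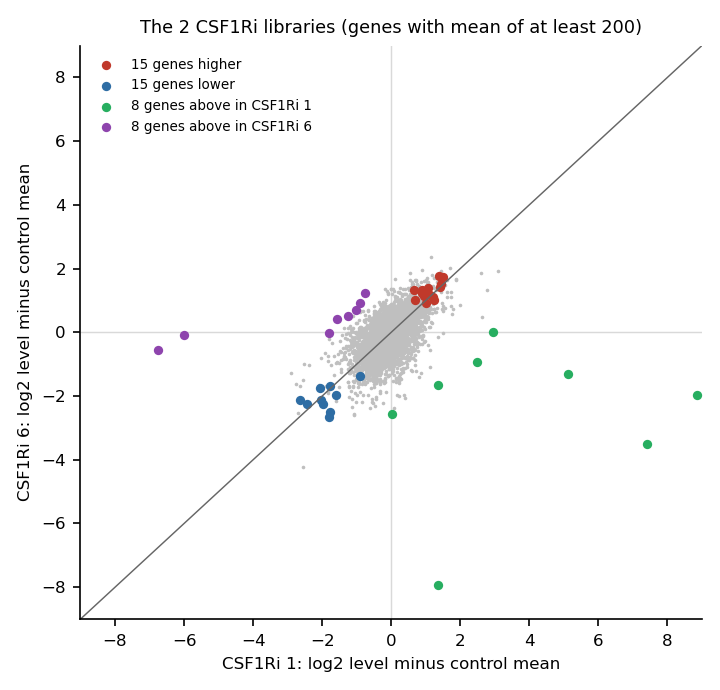
Each point is 1 of 6804 genes with a mean of at least 200, placed by its log2(normalized count + 1) minus the control mean in CSF1Ri 1 (x axis) and in CSF1Ri 6 (y axis); the diagonal marks equal values. The named higher and lower genes with such a mean lie near the diagonal, as their choice favours, and the immunoglobulin genes, Krt17 and Cst6 lie far from it.

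The same chow was given on top of the CD40 antibody, in 2 libraries (CSF1Ri+CD40) that can be set against 3 with the antibody alone (CD40); these 5 libraries are separate from the ones above. In that pair of groups 13222 genes were tested, limma called 0, and 364 stood at an unadjusted p under 0.05. Of the 15 named higher genes, 13 were again higher by mean log2 level, a share of 86.7%, where 50.4% of all genes higher in the first comparison were. That share leans in part on 1 low library, CD40 3. For Ctsw, Litaf and Cxcr6, which are among the 13, both CSF1Ri+CD40 libraries exceeded only CD40 3. Ctsw stood at 8653, 8907 and 2733 with CD40 and at 6352 and 6250 with CSF1Ri+CD40. For Crtam, at 584, 320 and 347 against 890 and 738, the groups did not overlap. Of the 15 lower genes, 4 were again lower, 26.7% against 48.1%. Cd8a stood at 3949, 2744 and 1051 with CD40 and at 3785 and 4947 with CSF1Ri+CD40, and Cd38 at 311, 213 and 319 and at 635 and 1398. For Cd38 the groups did not overlap, whereas Pdcd1, at 5537, 2833 and 1868 against 5676 and 3324, overlapped. Csf1r, which overlapped in the first comparison, stood at 235, 99 and 109 with CD40 and lower, at 30 and 41, with CSF1Ri+CD40, without overlap.

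Il17a went in the other direction there, from 485, 155 and 128 with CD40 to 1215 and 978 with CSF1Ri+CD40. Its CSF1Ri values, 1070 and 1138, were therefore close to those of CSF1Ri+CD40, while control and CD40 libraries lay on either side. The test of the difference between the effects of the chow, fitted with limma over all 4 groups and 14163 genes, gave 4.08 on the log2 scale for Il17a (adjusted p = 0.616) and called 0 genes. Apod and Dcn were uneven in the antibody group, at 3398, 205 and 0 and at 2418, 482 and 0, and stood at 1382 and 2319 and at 421 and 920 with CSF1Ri+CD40.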

How the data were processed

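Values were the deposited scores of 10 libraries, which the authors made by dividing counts per gene by a size factor of each library and rounding. The aligner was STAR on GRCm38 (mm10), the counter HTSeq and the normalization that of DESeq2, per the submitters' processing notes, with versions and annotation release not given in the sources used here. Libraries were unstranded and made from low-input RNA, per the labels' protocols, so reads of overlapping genes on opposite strands, and of near-identical genes such as globins or immunoglobulins, could not be told apart. Size factors computed again lay within 0.333% of 1, so no further scaling was applied. No pair of the 5 libraries shared more than 0.437% of compared values.

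The 5 libraries were fitted in limma 3.58.1 (R 4.3.3) on log2(value + 1), with the variance following the mean level, 3 residual and 5.24 prior degrees of freedom, two-sided tests and Benjamini-Hochberg adjustment over 14163 genes. Fold changes on this scale understate those of low genes. Estimated depth was similar in the 4 libraries that allow an estimate, so precision follows a gene's count, and a few reads give a wide error. Alternatives changed the pseudocount, filter, scaling, libraries and trend. Named genes were the 15 with the smallest p in each direction (mean of at least 50, groups not overlapping). To these were added 11 genes always given and up to 4 members of each list. Those members had the smallest p among members whose groups did not overlap, at any mean. The 8 genes with the largest excess in each CSF1Ri library were named too, among genes with a mean of at least 200. All other members named, with overlapping groups or not, and the comparison with the CD40 libraries, were chosen after their values were seen. Members and the 33 lists (579 entries, 575 matched) were chosen with earlier results of these data known, so lists are described by counts and medians only. Some items are not reported here. Positions are from GENCODE vM21. The fit was tested on simulated data. Figures were drawn in Python 3.11.15 with matplotlib 3.10.9.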

Additional observations from a re-analysis of the deposited data

How the results depend on the processing

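Most of the 123 genes named by rule for the comparison were chosen for groups that did not overlap. Leaving out a library cannot reverse the direction of such a gene. Of the 123 genes, 121 kept their direction under all 11 alternatives, a number that this choice largely fixed in advance. The exceptions overlapped between groups throughout: the log2 fold change of Il2 (0.03) ran from -0.40 to 0.47 when single libraries were left out, and that of Csf1r (0.04) from -0.17 to 0.25. The number of genes past the adjusted threshold, 0, became 3 (Apod, Il17a and Dcn, adjusted p = 0.0215, 0.0310 and 0.0498) among the 10920 genes with at least 50 in at least 2 libraries, 1 (Anxa8, adjusted p = 0.0347) with all 10 libraries in the fit and 34 in limma without the trend; with a library left out it stayed 0. Lower genes at an unadjusted p under 0.05 numbered 326 with all 10 libraries. Leaving out single libraries moved that count from 267 to 1060 and that of higher genes from 67 to 760. Of the 33 list medians, 22 kept their sign and 11 did not; the median of type 17 genes was 0.12 and that of macrophage genes 0.17 without CSF1Ri 1. The cause of these shifts was not tested, beyond the smaller number of genes or libraries that an alternative leaves. No paired analysis was possible because the CSF1Ri titles carry only the number 6 or none, which no control title has. The depth of control 1 is unknown, and with 2 and 3 libraries the precision for genes with few counts is low.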

Other observations

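Mast cell transcripts, which belong to no comparison above, followed single libraries. Tpsab1, a mast cell tryptase, stood at 24, 462 and 1138 normalized counts in control 1, 2 and 3 and at 1626 and 597 in CSF1Ri 1 and 6, and Cpa3, the mast cell carboxypeptidase, at 54, 56 and 339 and at 408 and 185. Control 3 and CSF1Ri 1 held most in their groups for both genes. Of the 12 mast cell and basophil genes, 0 stood above all controls and 1 below, Ms4a2, a chain of the IgE receptor, at 37, 28 and 25 against 2 and 0. The list median was 1.46 in CSF1Ri 1 and -0.43 in CSF1Ri 6 over the control mean.

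Dendritic cell genes gave 2 of 13 above and 2 below all controls. Xcr1, a receptor of cross-presenting dendritic cells, stood at 34, 22 and 32 in the controls and at 128 and 50 with CSF1Ri, while Siglech, of plasmacytoid cells, stood at 44, 28 and 62 and at 20 and 0. H2-Aa, of MHC class II, overlapped at 4824, 2111 and 1828 against 4018 and 2995. Malat1, a nuclear RNA, stood at 45775, 14056 and 59286 in the controls and at 34141 and 21997 with CSF1Ri, so control 2 held the least.

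The remaining lists are given by their counts. Cytokine receptor and JAK-STAT genes gave 9 of 30 above and 2 below all controls (median log2 fold change 0.12), natural killer cell genes 0 of 9 above and 1 below (-0.27), B and plasma cell genes 1 of 12 above and 0 below (-0.29), and heat shock genes 0 of 10 above and 2 below (0.08). Of 12 neutrophil genes 5 were tested, with 0 above and 0 below all controls, and of 10 endothelial genes 4, with 0 above and 1 below, Pecam1, at 913, 890 and 827 against 808 and 684.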
